A study of Drosophila melanogaster with 21 samples.

Results

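The cytosolic ribosomal protein genes of the fruit fly were followed through a 16 h fast and through loss of Crtc, a transcription coactivator that works with CREB, in heads of adult Drosophila melanogaster. Members were taken by symbol alone: names of the form RpL or RpS followed by a number, the stalk proteins named RpLP, and sta, which encodes the RpSA protein of the small subunit. The rule named 93 genes in the gene name table, of which 88 had a row among the 17559 identifiers of each deposited table. RpL19, RpL27A, RpL31, RpS10b and RpS12 had no row under their present identifiers and were not analysed here. Of the 88, 79 had a base mean (the mean normalised read count over the libraries of a table) of at least 10 in all 4 tables, and these 79, of which 47 have symbols of the large-subunit family and 32 of the small-subunit family, are the genes counted in the results. Of the other members, 6 had a base mean of 0 in all 4 tables, and RpS5b, RpS10a and RpS28a stayed under 10.

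A ribosome has a large subunit, which joins amino acids, and a small subunit, which reads the mRNA, and each holds a fixed set of proteins made in near-equal amounts. Ribosome production is among the largest costs of a growing cell, and the TOR kinase, which is active when nutrients are plentiful, promotes both the transcription of ribosome genes and the translation of ribosomal protein mRNAs. Flies that lack 1 copy of one of many of these genes show the Minute phenotype, with slow development and thin bristles. Several families have a second copy elsewhere in the genome, and some of the second copies are known from the gonads, such as RpL22-like in the testis and RpS5b in the ovary.

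The 4 deposited tables compared 10 polyA RNA-seq head libraries, all from flies 3 to 5 days old on standard media. The control group, labelled w1118 (a white-eyed stock), had 3 fed and 2 fasted libraries, and the Crtc knockout group, labelled crtc ko with no further allele given, also had 3 fed and 2 fasted libraries. Fasted flies went without food for 16 h. The series lists 21 samples, and the other 11, from bodies and from CREB and Sik2 mutants, were not analysed here.

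The tables give a fold, its standard error and a test per gene but no value per library, so neither the spread between libraries nor the depth of a library is known here, and base means, folds, their standard errors and adjusted p-values are those of the authors' deposited tables unless the text says otherwise. Levels per kb, medians and other summaries, correlations and the difference between fasting responses were computed from those tables. In knockout heads, Crtc was lower by −4.88 ± 0.32 on the log2 scale (SE, adjusted p = 5.32e-50 in DESeq2's Wald test) when fasted and by −4.48 ± 0.26 (adjusted p = 1.11e-63) when fed, according to the authors' deposited tables. Head markers were abundant in the authors' deposited tables, with summed base means of 19538 to 22329 for 5 neuron markers and 199883 to 260394 for 5 photoreceptor markers. Gonad markers were near 0 there, with summed base means of 6.89 to 9.69 for 4 female germline genes and 27.2 to 30.0 for 7 male germline genes. The male germline genes Mst84Da and aly were at 0 in 2 of the authors' deposited tables and the female germline gene bam in 1. The labels number the third fed library of each genotype apart from the rest, beside the Sik2 mutant, among libraries with no fasted sample, so any difference of that set from the others cannot be fully told apart from fasting. The labels do not say whether libraries of a group came from separate flies, so p-values may measure technical spread.

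Most members were expressed at high and similar levels. In the authors' deposited control fasting table, the 88 members held 6.44% of the summed base mean of all genes, and in the other 3 tables they held 6.07% (knockout fasting), 7.10% (fasted knockout against control) and 5.68% (fed knockout against control). The 5 members without a row are not in these shares. Of the 79, 77 had a base mean of 100 or more in every table, and 74 had at least 1000. Their genes were short, with a median of 927 bp of exon (77 members, BDGP6.54 annotation) against 2252 bp for the 8433 protein-coding genes with a control fasting base mean of 10 or more. Their median coding length was 468 bp against 1452 bp. Per kb of exon, the base mean of the 77 had a median of 3502 in the authors' deposited control fasting table and quartiles of 2778 and 4636, a spread of 1.67-fold.

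The ends of this range were held by RpL41, the shortest ribosomal protein, with 15926 per kb of exon, and by RpL34a, with 858, both from the authors' deposited control fasting table. The next highest were RpL39 with 6971 and RpL21 with 6887 in that authors' deposited table. All 3 encode proteins of the large subunit, and RpL41 has 75 bp of coding sequence in 320 bp of annotated exon. RpL24-like with 980 and RpS14b with 1044 followed RpL34a from below in the authors' deposited table. All 3 of these low genes belong to families with a more highly expressed copy. The order at the top depended on the length used. Per kb of coding sequence, RpL41 and RpL34a still held the ends in the authors' deposited control fasting table. The genes next to RpL41 were then RpS29 with 22585 and RpS28b with 17457, both with symbols of the small-subunit family.

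Copies within a family differed widely in level. RpS5a, a small-subunit protein gene on X, had 1915 per kb of exon in the authors' deposited control fasting table against 2.86 for its copy RpS5b on 3R. RpS15Aa had 2926 against 129 for RpS15Ab, a ratio of 22.7, and RpLP0, the base of the stalk, had 2762 against 56.1 for RpLP0-like, in the same authors' deposited table. RpLP0-like is the fly counterpart of a yeast factor that acts in assembly of the large subunit, as is RpL24-like, and both names reflect sequence likeness rather than a place in the finished ribosome.

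Closer pairs were RpL24 at 2791 and RpL24-like at 980, RpL34b at 2643 and RpL34a at 858, and RpS14a at 3029 and RpS14b at 1044, per kb of exon in the authors' deposited control fasting table. The ratios of these pairs were 2.85, 3.08 and 2.90 per kb of exon, but 5.74, 4.44 and 4.26 per kb of coding sequence. RpS14a (X, 7933742 to 7934677, plus strand, BDGP6.54) and RpS14b (X, 7934898 to 7935792, plus strand) are neighbours that encode closely related proteins, and the counting of reads that match both was not given in the sources used here. RpS14b carried the largest standard error of the 77 members in all 4 of the authors' deposited tables, from 0.267 to 0.359. That error is of its fold between groups, not of its level. Because the counting of shared reads is unknown, its level and its ratio to RpS14a are uncertain. RpL10Aa, RpL22-like, RpL37-2, RpL7-like, RpS19b and RpS28-like had a base mean of 0 in each of the authors' deposited tables. The annotated exons of RpL7-like lie to 98.8% within those of CG34164 on the same strand, and CG34164 was also at 0 in the authors' deposited control fasting table, so that a 0 there does not speak of its expression.

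**Figure D1:**
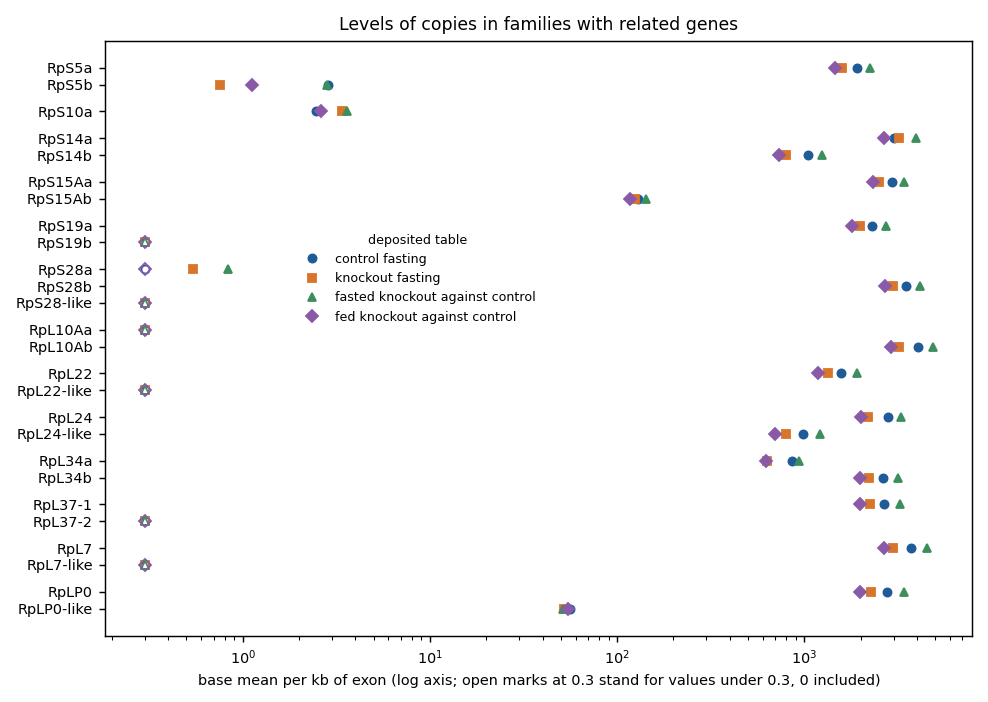
Base mean per kb of annotated exon (log axis) of each gene in families with related copies, from the authors' 4 deposited tables, with open marks for values under 0.3. One copy in most families sits near 1000 or above, while RpS5b, RpS10a and RpS28a sit under 10 and 6 copies are at 0; levels are comparable within a table only.

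The plot of copy levels shows that the order within each family was the same in all 4 tables wherever both copies were above 0. Each table has its own scale, so a shift of all marks between tables is not a change of level.

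Fasting in control heads was accompanied by a small and uniform offset of the ribosomal protein genes above 0, with no single gene passing the test. In the authors' deposited control fasting table, 0 of the 79 members were called up or down at an adjusted p under 0.05 in DESeq2's Wald test, where 3.84% of all genes tested were called (2.19% up and 1.65% down). Nevertheless 77 of the 79 had a log2 fold above 0 in the authors' deposited table, against 47.7% of all genes with a base mean of 10 or more. The median fold of the members was 0.29 on the log2 scale, which is 1.23-fold, with an SD of 0.098 over genes, while the median of all genes was −0.01 in the authors' deposited table. Members are not independent replicates, since all folds come from the same 5 libraries, and these counts are a description of the list, not a test of it. A higher share of ribosomal protein mRNA per cell and a change in which cells the RNA came from cannot be told apart in bulk heads. Nor can either be fully told apart from a difference of the separately numbered set that holds the third fed library.

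Genes of the large-subunit family had a median fold of 0.31 and those of the small-subunit family 0.27 in the authors' deposited control fasting table, so the offset was present in both. An unadjusted p under 0.05 was reached by 7 members, all above 0 and all with symbols of the large-subunit family, where 4.99% of all genes with a base mean of 10 or more did so upward and 4.39% downward. These 7 were RpL37A, RpL35, RpL23, RpL21, RpL28, RpL24-like and RpL39. RpL37A, a zinc-binding protein of the large subunit, had the highest fold of all members in the authors' deposited table, at 0.46 ± 0.19 (SE, unadjusted p = 0.0160 and adjusted p = 0.255 in DESeq2's Wald test). The fold of a member with the median standard error of 0.181 would have had to reach 0.356 to give an unadjusted p under 0.05.

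After RpL37A, the highest folds in the authors' deposited control fasting table were 0.42 ± 0.21 for RpL24-like, 0.39 ± 0.21 for RpS18, 0.38 ± 0.23 for RpL17, whose protein lines the exit tunnel of the growing peptide, and 0.38 ± 0.20 for RpL35A. None of these 4 had an adjusted p under 0.5. The lowest folds among members with a base mean of 100 or more were 0.13 ± 0.22 for RpL38, 0.16 ± 0.17 for RpS27A, 0.18 ± 0.15 for RpS29, 0.18 ± 0.18 for RpS19a and 0.20 ± 0.17 for RpS5a in the authors' deposited table. RpL37A at the top and RpL38 at the bottom have standard errors of 0.19 and 0.22, and the gap between them was not tested.

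Members with known special roles were read gene by gene, and none was called. Among the stalk proteins, which recruit elongation factors, RpLP0 had a fold of 0.31 ± 0.22, RpLP1 of 0.25 ± 0.15 and RpLP2 of 0.21 ± 0.23 in the authors' deposited control fasting table. RpL5 and RpL11, which carry the 5S rRNA into the large subunit, stood at 0.27 ± 0.16 and 0.37 ± 0.22 in the authors' deposited table. RpS6, the substrate of the S6 kinase downstream of TOR, had 0.26 ± 0.18, and sta had 0.26 ± 0.21, in the same authors' deposited table. RpL40 and RpS27A, both made as fusions with ubiquitin whose reads could be shared with other ubiquitin genes, had 0.25 ± 0.16 and 0.16 ± 0.17 in the authors' deposited table. RpL3 and RpL10, which sit close to the site of peptide bond formation, had 0.29 ± 0.17 and 0.23 ± 0.16 in the authors' deposited table.

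The members below 0 were the low copies RpLP0-like at −0.32 ± 0.25 and RpS15Ab at −0.01 ± 0.22 in the authors' deposited control fasting table. Their base means were 53.2 and 93.4, while the related RpLP0 and RpS15Aa stood at 3668 and 2762 in that authors' deposited table and had folds of 0.31 and 0.22. The 2 low copies thus lay below their high-level relatives, although with standard errors of 0.22 and 0.25 neither gap was tested.

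**Figure D2:**
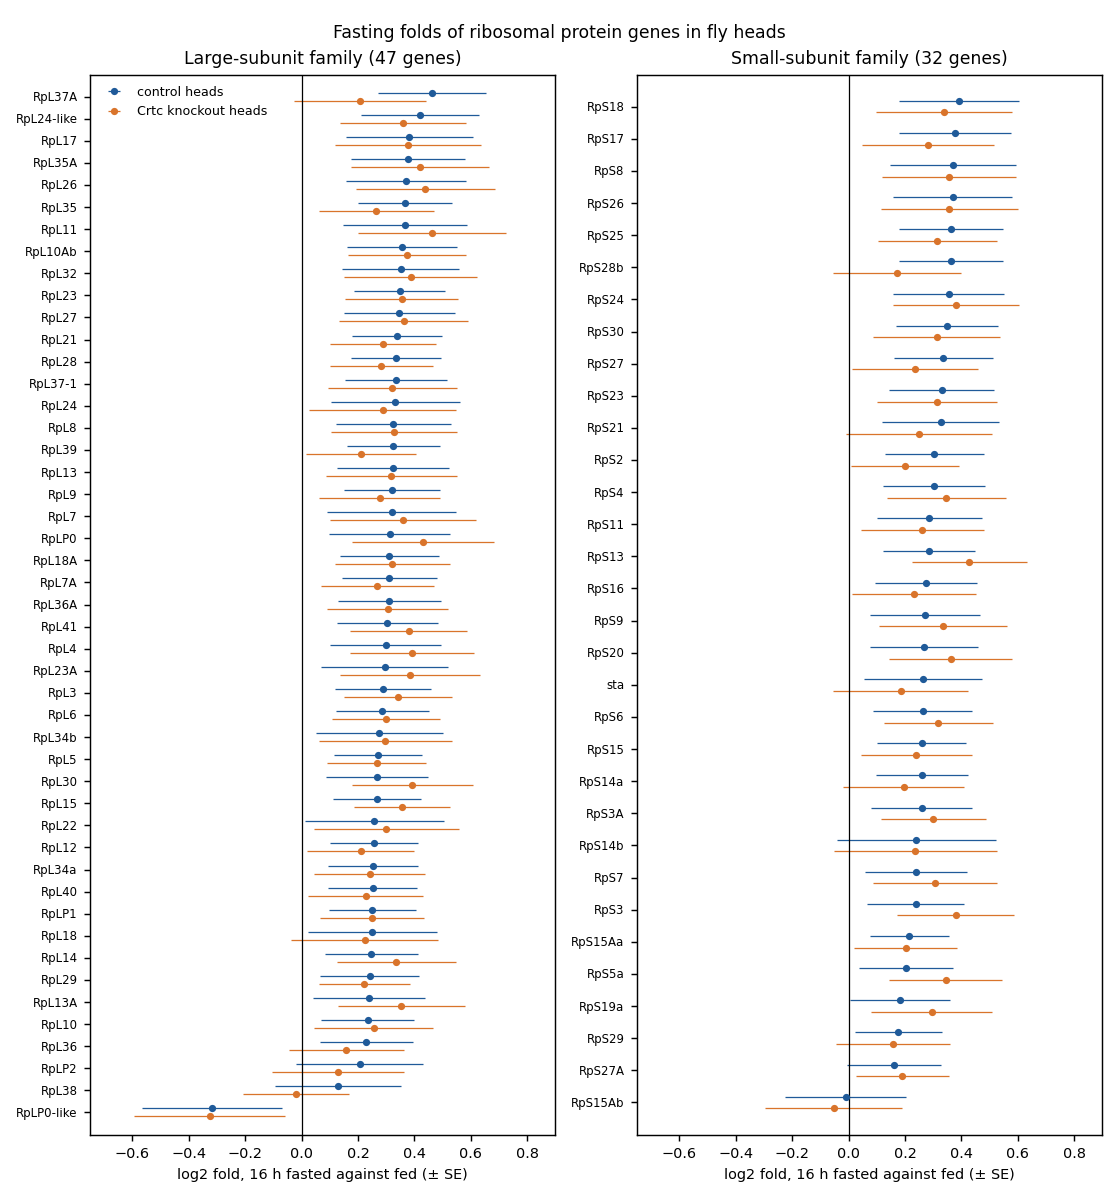
Log2 fold of 16 h fasted against fed heads (± SE) for each of the 79 ribosomal protein genes, in control (blue) and Crtc knockout (orange) heads, from the authors' deposited tables. Nearly all points lie between 0.1 and 0.5 in both genotypes, with RpLP0-like and RpS15Ab below 0, and the error bars of most genes within a subunit overlap.

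In Crtc knockout heads the ribosomal protein genes stood at a similar height above 0 after fasting. The authors' deposited knockout fasting table called 0 of the 79 members, where 3.26% of all genes tested were called (2.76% up and 0.498% down). The log2 fold was above 0 for 76 of the 79, against 46.7% of all genes, and the median was 0.30, which is 1.23-fold, with an SD of 0.114 over genes and a median of −0.02 over all genes in the authors' deposited table. Both subunit families had medians of 0.30. An unadjusted p under 0.05 was reached by RpS13 (0.43 ± 0.20) and RpL15 (0.36 ± 0.17) in the authors' deposited table, 2 members of 79, where 7.72% of all genes did so upward and 2.15% downward. The smallest adjusted p of a member was 0.471, for RpS13.

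The highest folds in the authors' deposited knockout fasting table were 0.46 ± 0.26 for RpL11, 0.44 ± 0.25 for RpL26, 0.43 ± 0.25 for RpLP0, 0.43 ± 0.20 for RpS13 and 0.42 ± 0.24 for RpL35A. The lowest were −0.02 ± 0.19 for RpL38, 0.13 ± 0.23 for RpLP2, 0.16 ± 0.20 for RpS29, 0.16 ± 0.20 for RpL36 and 0.17 ± 0.23 for RpS28b in the authors' deposited table. RpL38, known in mice for its part in the translation of Hox mRNAs, was thus the lowest of the 77 well-expressed members in both genotypes. It was also the only one of the 77 below 0 in either of the authors' deposited fasting tables. RpL35A stood among the 5 highest and RpS29 among the 5 lowest in both tables as well. Across the 77 members the folds of the authors' deposited fasting tables, which share no library, had a Pearson r of 0.474 and a Spearman rho of 0.423, and r was 0.393 without RpL38. The standard errors were shared more closely than the folds (r = 0.839), and points share the sequence, length and level of each gene.

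Compared with other abundant genes the members were tightly grouped. Among genes with a base mean of 1000 or more, the 74 members had an SD of folds of 0.060 in the authors' deposited control fasting table and 0.083 in that of knockout fasting, against 0.354 for 808 other genes and 0.481 for 665 other genes. The other abundant genes had median folds of −0.06 and −0.08 in the authors' deposited tables. Their median standard error was 0.166 and 0.191, against 0.181 and 0.215 for the members. The members' SD of folds was thus below their own median standard error in both tables. Whether members share errors that come from the same libraries was not tested. Of all genes with a base mean of 10 or more, 9.46% in control heads and 13.9% in knockout heads had a fold at or above the members' median. A fold of this size was thus held by many genes outside the list.

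**Figure D3:**
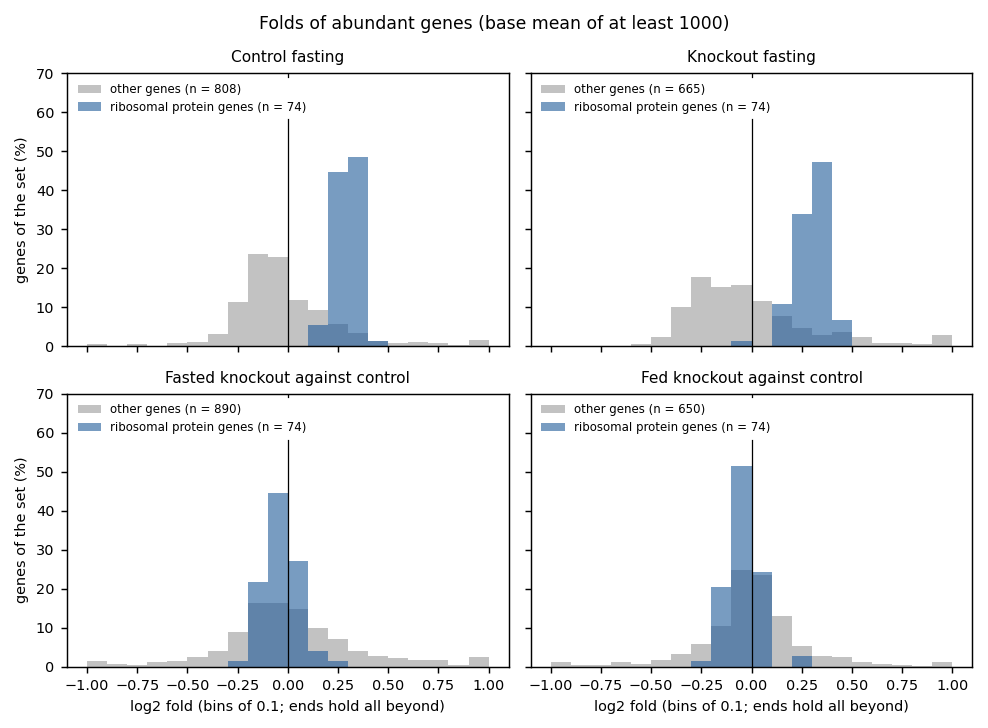
Share (%) of abundant genes (base mean of 1000 or more) by log2 fold in bins of 0.1, for ribosomal protein genes (blue) and other genes (grey), in the authors' 4 deposited tables. The blue bars form a narrow group around 0.3 in both fasting tables and around 0 in both genotype tables, inside the wider grey distribution.

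Marker genes of other cell types moved in the same libraries. In the authors' deposited control fasting table, 3 of 4 muscle markers and 2 of 3 fat body markers with a base mean of 10 or more were called down, among them Mlc2 at −0.96 and the lipoprotein gene apolpp at −1.22. In knockout heads 0 of 5 muscle markers and 1 of 3 fat body markers were called down in the authors' deposited table. Of 5 glia markers, 2 were called up there, alrm at 1.40 and Gs2 at 0.49, while 3 lay above 0 and nrv2 stood at −0.34. In control heads 0 of 5 glia markers were called and all 5 lay below 0, with a median of −0.10, in the authors' deposited table. Hml was called down in both, at −1.23 and −1.31 in the authors' deposited tables. It was 1 of 2 haemocyte markers in control and 1 of 3 in knockout heads, where srp stood at 0.07 and −0.02. The 5 neuron markers were not called in either of the authors' deposited tables, with medians of −0.19 and −0.33, nor were the 5 photoreceptor markers, with medians of 0.16 and −0.06. Summed base means ranged over the 4 authors' deposited tables from 8814 to 9305 for muscle, 7378 to 10784 for fat body, 4876 to 6317 for glia and 203 to 235 for haemocytes. The part of these markers in the folds of the ribosomal protein genes was not tested.

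The response to fasting did not differ detectably between genotypes for any member. The difference was taken per gene as the knockout fold minus the control fold, over the root of the summed squared standard errors, and adjusted over 8474 genes with a base mean of 10 or more in both tables. At an adjusted p under 0.05, 0 of the 79 members were called, where 0.802% of all genes were (0.696% positive and 0.106% negative). No member had an unadjusted p under 0.05, against 4.12% of all genes, and the smallest was 0.398, for RpL37A. The median difference was −0.01, with an SD of 0.075 over genes, and 35 of 79 members lay above 0, against 48.2% of all genes. The median standard error of 0.284 is large beside these values, and a member would have needed a difference of about 0.556 for an unadjusted p under 0.05, so smaller differences could not be seen.

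The largest negative differences were −0.26 ± 0.30 for RpL37A, −0.19 ± 0.29 for RpS28b, −0.15 ± 0.29 for RpL38, −0.11 ± 0.26 for RpL39 and −0.10 ± 0.26 for RpS2. The largest positive ones were 0.14 ± 0.26 for RpS13, 0.14 ± 0.27 for RpS3, which lies at the mRNA entry of the small subunit, 0.14 ± 0.26 for RpS5a, 0.12 ± 0.28 for RpL30 and 0.12 ± 0.33 for RpLP0. Each of these 10 differences was smaller than its own standard error.

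Between knockout and control heads, no ribosomal protein gene passed the test in either feeding state, and more members lay below 0 than above. In the authors' deposited table of fasted knockout against control, 0 of 79 members were called, where 5.39% of all genes tested were (3.43% up and 1.97% down). In fed heads 0 of 79 were called in the authors' deposited table, where 4.75% of all genes were (2.27% up and 2.49% down). The median fold was −0.04 in each of these authors' deposited tables, with 26 of 79 members above 0 in fasted heads, against 46.9% of all genes, and 22 of 79 in fed heads, against 49.8%. No member had an unadjusted p under 0.05 in either table, whereas among all genes 7.90% (up) and 4.75% (down) did in fasted heads and 5.87% (up) and 6.15% (down) in fed heads. The members' median standard errors were 0.194 and 0.199 in the authors' deposited tables, so that a single member would have needed a fold of about 0.381 (fasted) or 0.390 (fed) for an unadjusted p under 0.05.

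RpS14a stood highest in both genotype comparisons, at 0.24 ± 0.19 in fasted and 0.30 ± 0.18 in fed heads in the authors' deposited tables. Its adjusted p was 0.894 and 0.663 in DESeq2's Wald test. RpS14b, its tandem neighbour, had −0.13 ± 0.36 and −0.03 ± 0.27 in the authors' deposited tables, so the pair lay on opposite sides of 0 in both states. Base means of RpS14a were 3462 and 2324, and those of RpS14b 744 and 436, in the authors' deposited tables of fasted and fed heads. Reads of this pair could have been assigned to either gene, so the folds of both are uncertain.

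Next in fasted heads were RpL32 at 0.14 ± 0.19, RpLP2 at 0.13 ± 0.24, RpS15Ab at 0.11 ± 0.28 and RpL11 at 0.11 ± 0.23, and in fed heads RpLP2 at 0.21 ± 0.21, RpL36A at 0.10 ± 0.20, RpS18 at 0.09 ± 0.23 and RpL32 at 0.09 ± 0.22, in the authors' deposited tables. RpL32, also called rp49, is widely used in flies as a reference gene for PCR, and its 4 folds in the authors' deposited tables were 0.35, 0.39, 0.14 and 0.09, none of them called. The lowest in fasted heads were RpS2 at −0.25 ± 0.19, a small-subunit protein at the mRNA entry, RpL34a at −0.19 ± 0.20, RpL37A at −0.19 ± 0.19, RpL38 at −0.17 ± 0.22 and RpL23 at −0.16 ± 0.18 in the authors' deposited table. In fed heads they were RpL23A at −0.22 ± 0.23, RpL34a at −0.18 ± 0.16, RpL41 at −0.17 ± 0.19, RpS20 at −0.16 ± 0.21 and RpL23 at −0.16 ± 0.18 in the authors' deposited table. RpL34a and RpL23 were thus among the 5 lowest in both states.

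**Figure D4:**
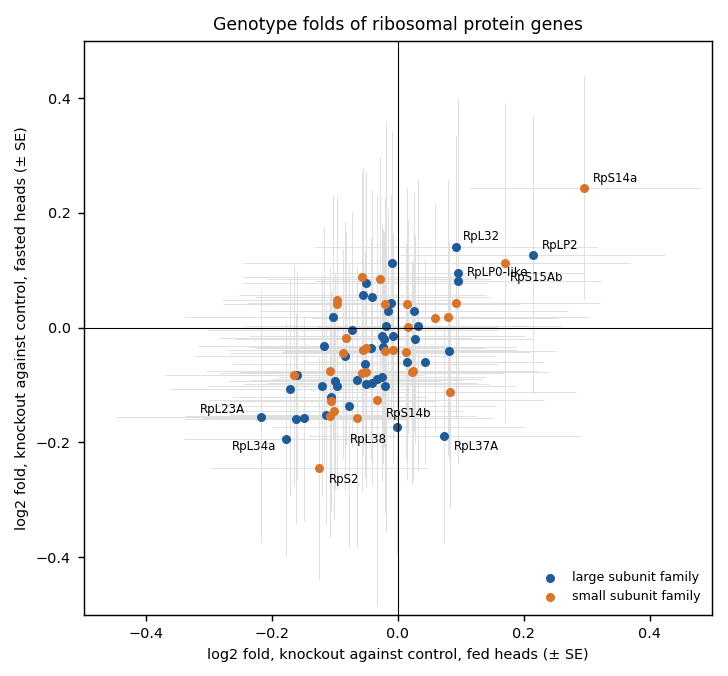
Log2 fold of Crtc knockout against control in fed heads (x axis) and in fasted heads (y axis), each with its SE in grey, for the 79 ribosomal protein genes, from the authors' deposited tables. Most points lie within 0.2 of 0 on both axes, RpS14a stands apart at 0.30 and 0.24, and the error bars of most genes cross 0.

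The scatter of genotype folds shows how far members agreed between feeding states, which share no library. Of the 77 with a base mean of 100 or more, 11 lay above 0 and 44 below 0 in both of the authors' deposited tables, and 22 lay on opposite sides. Across the 77 the folds had a Pearson r of 0.589 and a Spearman rho of 0.505, and r was 0.462 over 75 members without RpS14a and RpLP2. Genotype is the same contrast in both tables, and the stocks may differ at other loci than Crtc, which these values cannot tell apart. In fasted knockout heads 5 of 5 muscle markers and 2 of 3 fat body markers were called up, and in fed heads 1 of 5 and 1 of 3, in the authors' deposited tables. Of 5 photoreceptor markers, 1 was called up in fasted and 2 in fed heads, with medians of 0.19 and 0.33 and 4 of 5 above 0 in each. The highest was the rhodopsin-pathway gene Arr2, called up in both, at 0.78 and 1.06 in the authors' deposited tables. None of 5 glia and 3 haemocyte markers was called in fasted heads. In fed heads 1 of 5 glia markers was called down (alrm at −1.32) and 1 of 3 haemocyte markers up (NimC1 at 0.85), in the authors' deposited table. The alrm fold rests on the same fed knockout group as its rise on fasting in knockout heads and is not independent of it. The part of these cell markers in the members' folds was not tested.

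The 93 genes are spread over X (15), 2L (19), 2R (21), 3L (14), 3R (23) and chromosome 4 (1, RpS3A). Members on X had median folds of 0.26 in control fasting and 0.27 in knockout fasting (14 genes), against 0.30 and 0.31 for 65 autosomal members, in the authors' deposited tables. In the genotype comparisons the medians on X were −0.02 (fasted) and 0.0033 (fed), and on autosomes −0.04 and −0.05, in the authors' deposited tables. Between the arms X, 2L, 2R, 3L and 3R, with 13 to 18 members each, medians ran from 0.26 (X) to 0.31 (2L) in control fasting, from 0.24 (2R) to 0.35 (3R) in knockout fasting, from −0.08 (2L) to −0.02 (X) in fasted and from −0.07 (3L) to 0.0033 (X) in fed genotype comparisons, in the authors' deposited tables. None of these gaps was tested. Exons of 21 members overlap those of another protein-coding gene, on the opposite strand for 18 and on the same strand for 3, and whether reads were counted by strand was not given in the sources used here. The overlap with a protein-coding gene exceeded 20% of exon for RpL24 (21.6%, with CG7099), RpL30 (25.1%, with CG31793) and RpL7-like. With noncoding genes it did so for RpS9 (50.3%, asRNA:CR45874, opposite strand), RpL22 (34.3%, lncRNA:CR42491, same strand) and RpL23A (31.9%, Uhg7, same strand).

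Other parts of the translation machinery were read beside the ribosomal protein genes from lists of genes named by role. The 4 ribosome-associated factors, which are Rack1, the nascent chain complex subunits Nacalpha and bic, and Tctp, had median folds of 0.30 in control fasting and 0.34 in knockout fasting in the authors' deposited tables, with 0 called. The 32 translation initiation factors had medians of 0.21 and 0.15, with 27 and 24 above 0, in the authors' deposited fasting tables. Of them eIF3c, a core subunit of the complex that prepares the small subunit for mRNA, rose on fasting in knockout heads (0.59 ± 0.17, adjusted p = 0.0176 in the authors' deposited table). However, 0 of the 32 were called for a difference of the fasting response between genotypes. The call of eIF3c in fed knockout heads, given below, rests on the same fed knockout group and is not independent of this rise. The 7 elongation and termination factors with a row of 10 had medians of 0.18 and 0.05 in the authors' deposited tables, with 0 called. Mitochondrial ribosomal proteins, of which 70 met the base mean minimum, had medians of −0.01 and −0.05, with 34 and 28 above 0 and 0 called, in the authors' deposited tables. The cytosolic and mitochondrial families thus had different medians on fasting, and the gap between the lists was not tested.

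Genes that build ribosomes were not offset upward as a list. The 28 ribosome biogenesis genes with a row of 30 had medians of 0.02 in control and −0.09 in knockout fasting, and the 11 RNA polymerase I genes with a row of 14 had −0.01 and −0.14 (9 genes), in the authors' deposited tables. Only Non1, a nucleolar GTPase of large-subunit assembly, was called among the biogenesis genes, and it rose by 0.64 ± 0.18 in control heads (adjusted p = 0.0137) and by 0.80 ± 0.18 in those of the knockout (adjusted p = 0.000372), in the authors' deposited tables. Among 18 genes with a row of 20 that control ribosomal protein genes or their translation, Thor alone was called on fasting. Thor encodes 4E-BP, a repressor of cap-dependent initiation that TOR inactivates, and it rose by 1.38 ± 0.17 (control, adjusted p = 1.41e-13) and 2.30 ± 0.17 (knockout, adjusted p = 7.04e-40), according to the authors' deposited tables. The difference of 0.92 in favour of knockout heads passed the test over all genes (adjusted p = 0.0176), but not with a t distribution of 6 degrees of freedom. Between genotypes, Thor stood at 0.20 in fasted heads, not called, and at −0.67 in fed heads, called down, in the authors' deposited tables. These folds rest on the same libraries as the difference and are not independent of it.

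**Figure D5:**
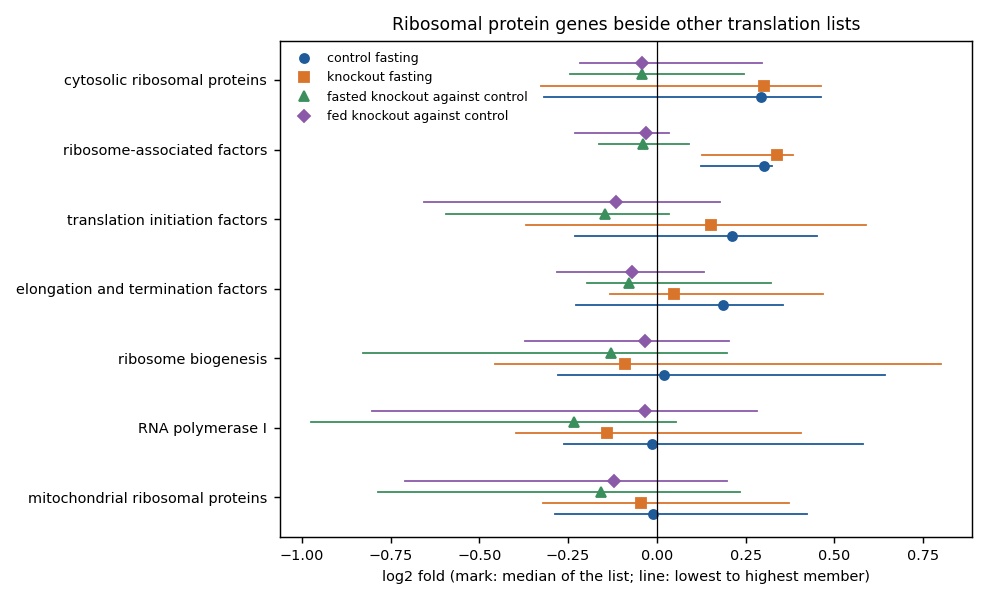
Median log2 fold (mark) and lowest to highest member (line) of the cytosolic ribosomal protein genes and 6 other lists, in the authors' 4 deposited tables. Cytosolic ribosomal proteins and ribosome-associated factors have fasting medians near 0.3, while the medians of biogenesis, RNA polymerase I and mitochondrial ribosomal protein genes are at or below 0.02.

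In the genotype comparisons, the plot of list medians shows initiation factors below the ribosomal protein genes, a gap that was not tested. The 32 initiation factors had medians of −0.14 in fasted and −0.11 in fed heads in the authors' deposited tables, and 4 were called down in fed knockout heads. These were the eIF3 subunits eIF3k (−0.66, adjusted p = 0.00283), eIF3c (−0.48, adjusted p = 0.0107), eIF3a (−0.43, adjusted p = 0.0380) and eIF3l (−0.47, adjusted p = 0.0419), according to the authors' deposited table. With adjustment over every gene with a p-value, eIF3a (0.0505) and eIF3l (0.0558) no longer passed. In fasted heads none of the 32 was called, and eIF3k had −0.59 in the authors' deposited table. Thor was called down in fed knockout heads at −0.67, and the RNA polymerase I subunit gene Polr1E at −0.80 (adjusted p = 0.0342), in the authors' deposited table. Mitochondrial ribosomal proteins had medians of −0.16 and −0.12 with 0 called, and ribosome-associated factors −0.04 and −0.03 with 0 called, in the authors' deposited tables.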

How the data were processed

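Heads were profiled by polyA RNA-seq (NEBnext Ultra), according to the labels' protocols. TopHat2, STAR, Cuffdiff and DESeq2, and the builds dm3 and dm6, are named per the submitters' processing notes with no role or version; which build the tables use is not settled, so positions come only from the BDGP6.54 annotation (Ensembl release 115). Per the file headers, the authors deposited for each comparison the base mean (a signal of normalised counts), the log2 fold with its standard error, the Wald statistic (a score), the p-value and the adjusted p-value; no value per library was used. Identifiers were matched to symbols for 17253 of 17559 rows. Genes count as called where the adjusted p in the authors' DESeq2 table was under 0.05. The standard errors had a ceiling, as under a normal prior that shrinks folds, so the unshrunken folds came from inverting such a prior. The difference of fasting responses used a two-sided normal p with Benjamini-Hochberg adjustment.

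Library numbers in the table names differ from those of the labels. The difference of fasting responses was also computed from the genotype tables, as the fasted fold minus the fed fold. Over 4701 genes with a base mean of 100 or more, it differed from that of the fasting tables with an SD of 0.0343. The SD of the difference itself was 0.280 from the fasting tables, so the tables hold closely matching libraries. The total depth per library is unknown; the summed base mean was 3465010 to 4405826.

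Genes named in the text were, by rule, the 5 highest and 5 lowest members with a base mean of 100 or more per comparison, any called member, copies within families, and a list of roles. Other genes named from the lists were called ones, and the remaining names were chosen after their values were seen. The members, the lists and the rules were chosen with earlier results of these data known. Promoters were not used here. Scripts used Python 3.11.15, pandas 2.3.3, numpy 2.4.6 and scipy 1.17.1.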

Additional observations from a re-analysis of the deposited data

How the results depend on the processing

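No member was called in any of the 4 tables or in the difference of fasting responses under any alternative tried, which were other thresholds (0.01 and 0.1), adjustment over every gene with a p-value or over genes with a base mean of 10 or more, and, for the difference, other base mean minimums, unshrunken or centred folds and a t distribution. Over unshrunken folds, centring, other base mean minimums and leaving out the families with copies, the members' median ranged from 0.29 to 0.34 in control fasting, 0.30 to 0.36 in knockout fasting, −0.05 to −0.02 in fasted and −0.05 to −0.03 in fed genotype comparisons. The 74 alternatives for called members, medians and counts above 0 were all labelled as unchanged, but by a wide rule for medians and counts. A median could move by up to the members' median standard error, and a count by a set ratio. The genotype medians were smaller than that error (0.194 fasted, 0.199 fed), so a change of their sign would not have been marked. Counts above 0 ran from 18 to 32 (fasted) and 17 to 23 (fed), where some alternatives also changed the number of members. Of the remaining alternatives, 526 were labelled as unchanged, 1 gained a call and 3 lost one. These were for single genes, apart from the correlations on unshrunken folds, which were labelled as unchanged without a rule. Polr1E in fasted knockout heads passed (adjusted p = 0.0452) when adjusted over genes with a base mean of 10 or more. Thor's difference and the fed genotype calls of eIF3a and eIF3l were lost, as given above. With a t distribution of 6 degrees of freedom 0 genes of 8474 were called different between genotypes, against 68 with the normal p. No paired analysis was possible because the tables hold no value per library, and for the same reason no library could be left out. Restricting the median to a base mean of 100 or more in all tables, and the correlation on unshrunken folds (r = 0.535 for fasting), were chosen after seeing the data.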
